A study of Mus musculus with 10 samples.

Results

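The 9 genes described here encode the αβ T cell receptor and the surface and nuclear proteins that go with it in conventional T cells. They were chosen by symbol and not by their values. Trac, Trbc1 and Trbc2 hold the constant regions of the receptor chains, Cd4, Cd8a and Cd8b1 the coreceptors, Cd5 and Cd6 a pair of scavenger receptor proteins that tune receptor signalling, and Foxp3 the lineage factor of regulatory T cells. Matching by Entrez ID found 9 of 9 among the 27179 genes counted, and 9 were among the 12655 genes tested. EM γδ T cells, sorted as CD3+ γδTCR+ cells of effector memory phenotype, CD44+ among other markers, came from the spleens of 5 pre-exposed and 5 naïve female C57BL/6 mice. Pre-exposed mice had received 50000 iRBC (infected red blood cells) of Plasmodium chabaudi at 6 to 8 weeks of age. Mice of both groups were given chloroquine and pyrimethamine from day 14, and the spleen was collected 12 weeks after the drugs ended. Each mouse gave 1 bulk RNA-sequencing library, so the control mice share the strain, the sex and the drugs, and lack the infection. The libraries of both groups hold RNA of whatever passed the gate, and fewer cells of a type and less RNA per cell cannot be told apart in them.

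A T cell displays either an αβ or a γδ receptor, each in a complex with the CD3 chains. The variable part of a chain is joined in the thymus from V and J segments, and in β and δ chains from D segments also, and is spliced to a constant region. The δ locus lies inside the α locus on mouse chromosome 14, and several Trav families serve both chains, whereas the Trac constant region belongs to the α chain. The β constant genes can be transcribed in γδ T cells that display no β chain. CD4 binds MHC class II and CD8 binds MHC class I. In the mouse spleen CD4 and CD8α are also carried by subsets of dendritic cells, and CD5 by a subset of B cells.

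The constant genes of the β chain are close copies, and so are several V segments, which limits how reads can be divided among them. Over the 521 coding bases compared, Trbc1 (chr6:41538218-41539881) and Trbc2 (chr6:41546730-41548352, both on the plus strand of GRCm38) differed at 23 bases, and the first 259 were identical. The stretch of 120 bases from base 361 to base 480 of each transcript (GENCODE release M21) is shown because it holds 14 of these differences, set in capitals.
Trbc1: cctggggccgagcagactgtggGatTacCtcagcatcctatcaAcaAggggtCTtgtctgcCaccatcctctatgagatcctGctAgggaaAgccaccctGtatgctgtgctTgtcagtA
Trbc2: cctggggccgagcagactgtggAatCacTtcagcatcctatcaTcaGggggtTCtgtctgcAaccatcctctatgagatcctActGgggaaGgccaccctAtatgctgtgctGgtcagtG
A read of 76 cycles from the first part of the constant region fits both genes, so the split between Trbc1 and Trbc2 is uncertain, while their sum is less so.

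Among the V segments, Trav11 (chr14:53519303-53519859) and Trav11d (chr14:52824357-52824912) are shown with Trav11n (chr14:53135122-53135678) because they recur in the results below. Their bases 181 to 300 follow, on the plus strand of GRCm38, with the bases at which Trav11n differs in capitals.
Trav11: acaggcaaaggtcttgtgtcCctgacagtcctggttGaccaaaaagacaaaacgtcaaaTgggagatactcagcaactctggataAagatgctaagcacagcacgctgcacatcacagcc
Trav11d: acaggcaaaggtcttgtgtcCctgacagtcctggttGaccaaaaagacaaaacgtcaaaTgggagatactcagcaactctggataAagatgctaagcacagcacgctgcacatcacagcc
Trav11n: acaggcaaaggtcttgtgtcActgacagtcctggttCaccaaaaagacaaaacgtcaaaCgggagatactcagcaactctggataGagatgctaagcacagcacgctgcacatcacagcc
Over the 342 bases compared, Trav11 and Trav11d differed at 0 bases and Trav11 and Trav11n at 8, of which 4 lie in the stretch shown. Counts of Trav11 and Trav11d therefore cannot be assigned to 1 copy, and the family is also given as a sum. The J segment Traj18 (chr14:54200777-54200842, plus strand) is 66 bases long and is shown whole because it is the usual partner of Trav11 in the invariant receptor of mouse NKT cells.
Traj18: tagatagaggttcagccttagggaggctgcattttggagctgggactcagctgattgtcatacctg

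Total counts per library ranged from 8747888 to 22542832 in pre-exposed mice and from 6587199 to 19993444 in naïve mice. The sorted receptor was present in all libraries, with Trdc, the δ constant gene, at 2399 ± 980 CPM (counts per 1e6 of the library size after TMM scaling) in pre-exposed mice and 2718 ± 868 CPM in naïve mice (SD, n = 5 each). Trgc4, the most abundant γ constant gene, averaged 1030 ± 680 CPM in pre-exposed mice and 1106 ± 431 CPM in naïve mice. Cd44, which the gate selected for, averaged 246 ± 75.4 CPM in pre-exposed mice and 245 ± 45.0 CPM in naïve mice. Some libraries stood apart. The pair of sequencing indices is written in the descriptions of 7 libraries and not in those of pre-exposed mice 2 to 4. In pre-exposed mice 2 to 4, short genes took more of the counts than in naïve mice, with a Spearman correlation between gene length and deviation from the mean over libraries of −0.536 to −0.239 across genes, against 0.259 to 0.413 in naïve mice. It was 0.273 in pre-exposed mouse 1 and −0.136 in pre-exposed mouse 5. Pre-exposed mouse 5 had 24.7% of its counts in the top 10 genes, while the remaining 9 libraries had 5.61% to 10.2%. Mitochondrial genes took 0.846% to 1.91% of the counts in pre-exposed mice 2 to 4, 5.86% in pre-exposed mouse 1 and 12.8% in pre-exposed mouse 5, against 4.33% to 7.25% in naïve mice. Immunoglobulin genes took 4.499% and 6.68% in pre-exposed mice 1 and 2, 1.70% in mouse 3, and 0.556% and 0.345% in mice 4 and 5, against 0.0845% to 0.737% in naïve mice. The part of these shares in the results was not tested. Values from subsets of the libraries are given with the results on the members and the receptor segments, and mostly as counts for the other genes.

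Trac was the member that differed between the groups in the fit across all genes. The libraries of pre-exposed mice 1 to 5 had 317, 507, 406, 389 and 270 CPM of Trac, against 136, 127, 228, 216 and 132 CPM in naïve mice 1 to 5. All 5 pre-exposed mice lay above all 5 naïve mice, which held for 2.77% of all tested genes. Pre-exposed mice averaged 378 ± 90.7 CPM of Trac and naïve mice 168 ± 49.8 CPM (SD, n = 5 each). The log2 fold change, 1.17 (SE 0.26), had an adjusted p of 0.0221 in edgeR's quasi-likelihood test. An exact permutation test gave p = 0.00794, the smallest that 5 against 5 mice allow. The α constant region of the mouse spans chr14:54220521-54224198 in GRCm38. Trac stayed below the adjusted threshold of 0.05 in 6 of 10 fits that each left out 1 library, and its adjusted p was 0.0783, 0.0638 and 0.0582 without naïve mouse 1, 2 or 5 and 0.0795 without pre-exposed mouse 2. With the trend with gene length removed the log2 fold change was 0.58 (SE 0.24), with an adjusted p of 0.233.

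**Figure D1:**
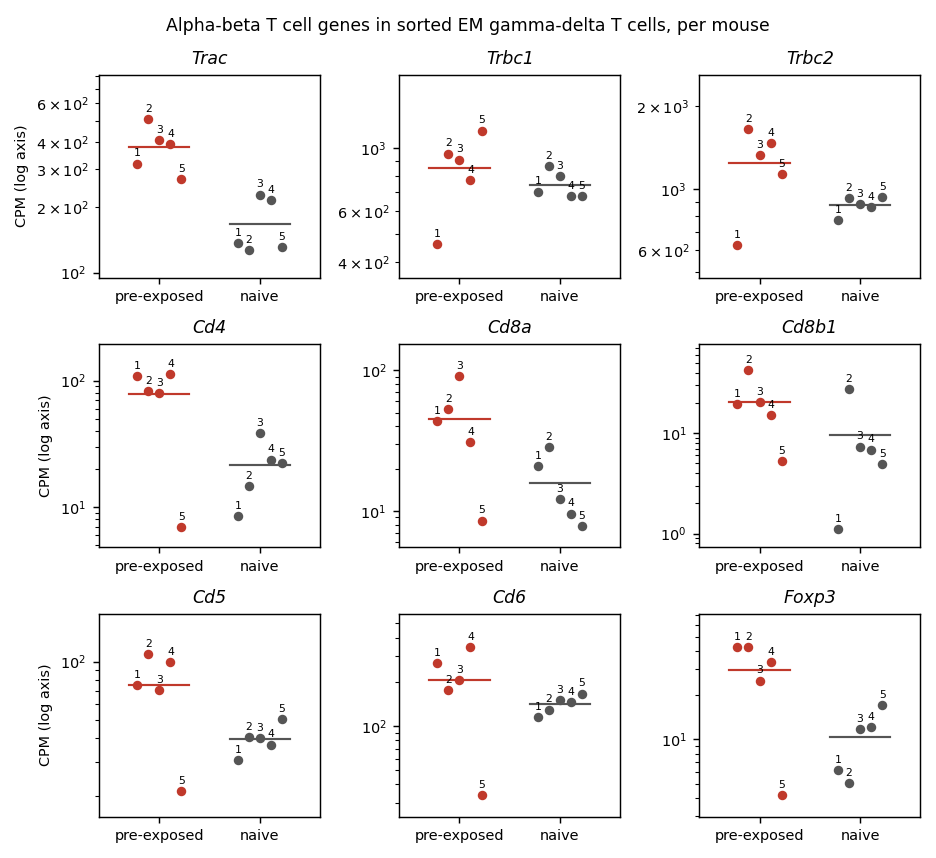
Levels of the 9 genes in CPM on a log axis, with 1 numbered point per mouse and a line at the group mean, for pre-exposed (red) and naïve (grey) mice. Trac is the gene in which every red point (270 to 507 CPM) lies above every grey point (127 to 228 CPM), and mouse 5 is the lowest of the pre-exposed mice in 7 of 9 genes.

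Trbc1 and Trbc2 were the most abundant members in both groups and differed less. Trbc1 had 460, 956, 911, 772 and 1152 CPM in pre-exposed mice 1 to 5, against 704, 865, 799, 679 and 677 CPM in naïve mice. The groups overlapped, with pre-exposed mouse 1 below all naïve mice. Trbc1 thus had a log2 fold change of 0.19 (SE 0.24, adjusted p = 0.674 in edgeR; exact permutation test, p = 0.619). Trbc2 had 627, 1647, 1330, 1462 and 1132 CPM in pre-exposed mice 1 to 5, against 771, 929, 884, 861 and 932 CPM in naïve mice. Pre-exposed mice 2 to 5 were above all naïve mice and mouse 1 was below them. The log2 fold change of Trbc2 was 0.50 (SE 0.25, adjusted p = 0.235 in edgeR; exact permutation test, p = 0.119). Both genes are short, with counted lengths of 519 and 520 bases, and with the length trend removed their log2 fold changes turned to −0.78 (SE 0.18, adjusted p = 0.0494) for Trbc1 and −0.43 (SE 0.23, adjusted p = 0.372) for Trbc2. The direction of either β constant gene is thus not fixed by these data.

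The balance of the receptor chains was compared within each library, per kilobase of counted length and with no test. Per 100 Trdc there were 33.1, 26.6, 15.7, 24.7 and 8.88 Trac in pre-exposed mice 1 to 5, against 4.81, 3.91, 11.8, 11.6 and 8.58 in naïve mice. Pre-exposed mice 1 to 4 lay above all naïve mice, and pre-exposed mouse 5 lay inside the naïve range. Trac was therefore below the δ constant gene in every library. The sum of Trbc1 and Trbc2 over Trac was 6.11, 9.16, 9.84, 10.2 and 15.1 in pre-exposed mice, against 19.3, 25.2, 13.2, 12.8 and 21.8 in naïve mice. Transcripts of the β constant region thus exceeded those of the α constant region at least 6.11 times in all 10 libraries, and by most in naïve mouse 2. Trbc2 took 49.6% to 65.4% of the 2 β constant genes in pre-exposed mice and 51.8% to 57.9% in naïve mice, subject to the shared sequence shown above.

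**Figure D2:**
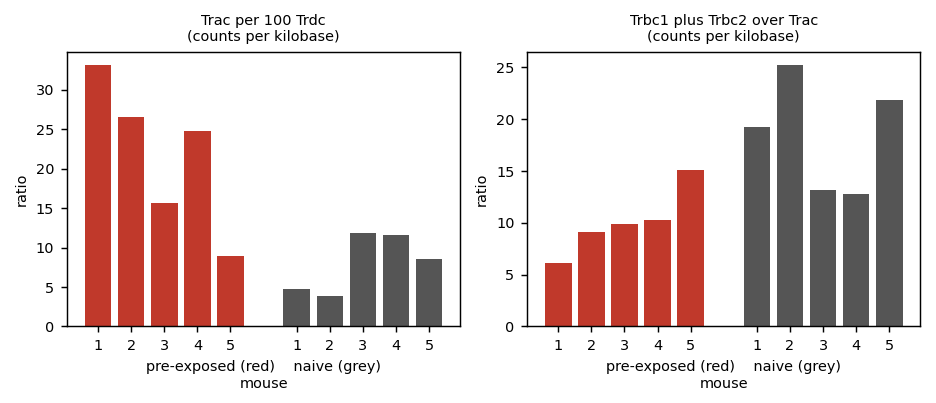
Ratios of counts per kilobase in each library, for pre-exposed mice 1 to 5 (red bars) and naïve mice 1 to 5 (grey bars). Left, Trac per 100 Trdc, highest in pre-exposed mouse 1 at 33.1; right, Trbc1 plus Trbc2 over Trac, highest in naïve mouse 2 at 25.2.

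Cd4 (chr6:124864693-124888247), which encodes the MHC class II coreceptor, had 108, 82.8, 79.2, 113 and 6.90 CPM in pre-exposed mice 1 to 5, against 8.51, 14.6, 38.7, 23.8 and 22.1 CPM in naïve mice. Pre-exposed mice 1 to 4 were all above the naïve mice, and pre-exposed mouse 5, with 38 counts, was below them. Over all libraries the log2 fold change was 1.87 (SE 0.53, adjusted p = 0.0512 in edgeR; exact permutation test, p = 0.119), so Cd4 did not pass the threshold. Without pre-exposed mouse 5 it was 2.13 (SE 0.32), with an adjusted p of 0.00106. Cd4 passed in that 1 alone of the 10 fits without 1 library, with an adjusted p of up to 0.136 in edgeR. In pre-exposed mice 1 and 5 against all naïve mice it was at 1.496 (adjusted p = 0.346).

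Cd8a (chr6:71373427-71379171), the α chain of CD8, had 43.5, 53.2, 90.4, 30.7 and 8.54 CPM in pre-exposed mice 1 to 5, against 20.9, 28.3, 12.2, 9.57 and 7.80 CPM in naïve mice. The first 4 pre-exposed mice exceeded all naïve mice. Its log2 fold change was 1.51 (SE 0.49, adjusted p = 0.0757 in edgeR; exact permutation test, p = 0.0794), and 1.71 (SE 0.38, adjusted p = 0.0118) without pre-exposed mouse 5. Cd8a passed in that 1 alone of the 10 fits without 1 library, with an adjusted p of up to 0.211 in edgeR. In pre-exposed mice 1 and 5 against all naïve mice it was at 0.77 (adjusted p = 0.552). Cd8b1 (chr6:71322788-71337492), the β chain found on CD8αβ T cells, had 19.4, 42.6, 20.2, 15.1 and 5.27 CPM in pre-exposed mice 1 to 5, against 1.10, 27.2, 7.33, 6.85 and 4.91 CPM in naïve mice. Naïve mouse 2 was above 4 of the 5 pre-exposed mice. Cd8b1 had a log2 fold change of 1.10 (SE 0.62, adjusted p = 0.297 in edgeR; exact permutation test, p = 0.127). Per kilobase, Cd8b1 over Cd8a was 0.987, 1.77, 0.494, 1.08 and 1.36 in pre-exposed mice 1 to 5, against 0.116, 2.13, 1.33, 1.58 and 1.39 in naïve mice. The β chain was thus at a level near that of the α chain in most libraries and far below it in naïve mouse 1, where it had 15 counts.

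Cd5 (chr19:10718107-10739026) had 75.8, 109, 71.0, 98.9 and 21.3 CPM in pre-exposed mice 1 to 5, against 30.7, 40.6, 39.9, 37.1 and 50.3 CPM in naïve mice. Cd5 had a log2 fold change of 0.93 (SE 0.34, adjusted p = 0.108 in edgeR; exact permutation test, p = 0.119), and 1.13 (SE 0.21, adjusted p = 0.00439) without pre-exposed mouse 5. Cd6, its neighbour at chr19:10789339-10830062, had 267, 175, 205, 346 and 33.8 CPM in pre-exposed mice, against 116, 130, 151, 146 and 166 CPM in naïve mice. For both genes pre-exposed mice 1 to 4 were above all naïve mice and mouse 5 was below them. Cd6 had a log2 fold change of 0.54 (SE 0.41, adjusted p = 0.434 in edgeR, p = 0.825 in an exact permutation test). Without pre-exposed mouse 5 it was 0.77 (SE 0.21, adjusted p = 0.0282). Cd5 and Cd6 passed in that 1 alone of the 10 fits without 1 library, with adjusted p of up to 0.278 and 0.713. In pre-exposed mice 1 and 5 against all naïve mice they were at 0.36 and 0.14 (adjusted p = 0.694 and 0.910).

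Foxp3 (chrX:7579676-7595243) had 42.5, 42.6, 25.1, 33.4 and 4.18 CPM in pre-exposed mice 1 to 5, against 6.16, 5.07, 11.7, 12.2 and 17.2 CPM in naïve mice. Again the first 4 pre-exposed mice were above all naïve mice and mouse 5, with 23 counts, was below them. The log2 fold change was 1.55 (SE 0.48, adjusted p = 0.0678 in edgeR; exact permutation test, p = 0.135), and 1.82 (SE 0.34, adjusted p = 0.00418) without pre-exposed mouse 5. Foxp3 passed in that 1 alone of the 10 fits without 1 library, with an adjusted p of up to 0.187 in edgeR. In pre-exposed mice 1 and 5 against all naïve mice it was at 1.29 (adjusted p = 0.375). The span of Foxp3 on the X chromosome overlaps those of Ccdc22 and of the long noncoding RNA Flicr. Ccdc22 averaged 16.9 ± 9.10 CPM in pre-exposed mice and 13.3 ± 4.17 CPM in naïve mice (SD, n = 5 each), and Flicr 1.01 ± 1.12 CPM in pre-exposed mice and 1.64 ± 0.99 CPM in naïve mice. Reads in the shared bases cannot be told apart where the counting did not use strand, and the strand setting is not given in the sources used here.

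In all, 1 of 9 members passed the adjusted threshold, Trac, which was higher. Among all tested genes 6.3% passed, 5.12% higher and 1.18% lower in pre-exposed mice. At an unadjusted p under 0.05 there were 5 members, against 24.3% of all tested genes. The log2 fold change was above 0 for 9 of 9 members, with a median of 1.10, against 51.3% of all tested genes and their median of 0.02; with the length trend removed it was above 0 for 7 of 9. Without pre-exposed mouse 5, 6 of 9 members passed (Trac, Cd4, Cd8a, Cd5, Cd6 and Foxp3), all higher, where 9.17% of all tested genes passed and were higher. Pre-exposed mice 2 to 4 against all naïve mice gave 7 of 9, the same 6 and Trbc2, where 14.9% of all tested genes were called higher. Pre-exposed mice 1 and 5 against all naïve mice gave 0 of 9 in edgeR (1 at an unadjusted p under 0.05), where 0.182% of all tested genes were called. In that comparison Trac had a log2 fold change of 0.86 (SE 0.30) and Cd4 of 1.496 (SE 0.72). With the length trend removed 1 of 9 passed, Trbc1, which was lower, where 0.308% of all tested genes were called lower. DESeq2 called Trac, Cd4, Cd8a and Foxp3, 4 of 9, all higher, where it called 7.97% of all tested genes higher.

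**Figure D3:**
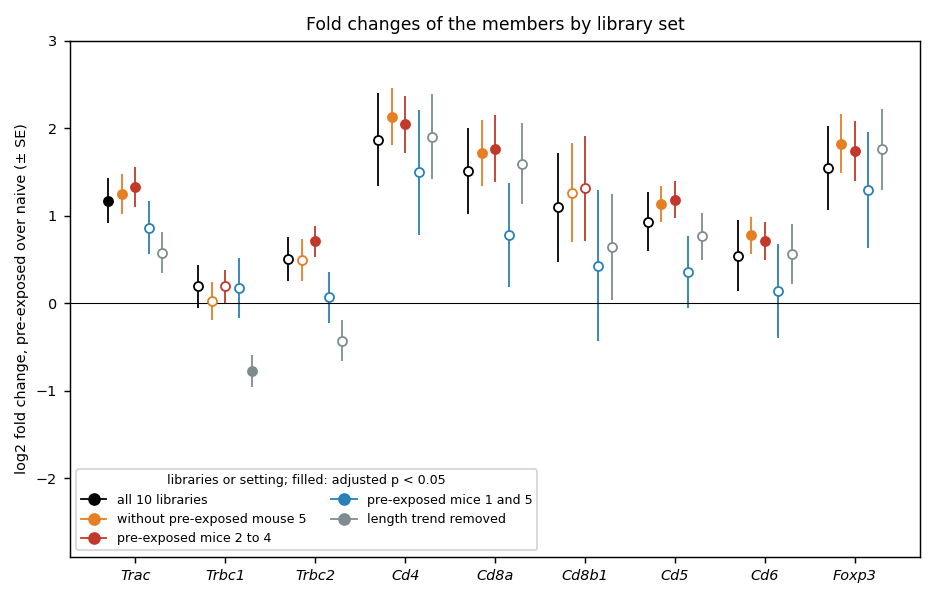
Log2 fold change of each member, pre-exposed over naïve, with its SE, in the fit of all 10 libraries (black), without pre-exposed mouse 5 (orange), with pre-exposed mice 2 to 4 (red) or 1 and 5 (blue) alone, and with the length trend removed (grey), where filled points passed an adjusted p of 0.05. The points lie above 0 except those of Trbc1 (−0.78) and Trbc2 (−0.43) with the length trend removed.

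Per kilobase of counted length, the order of the mean levels was the same in both groups. In pre-exposed mice it was Trbc2 (2383 CPM per kilobase), Trbc1 (1638), Trac (408), Cd6 (67.7), Cd5 (36.3), Cd4 (25.2), Cd8b1 (14.5), Cd8a (14.5) and Foxp3 (7.52). In naïve mice it was Trbc2 (1683 CPM per kilobase), Trbc1 (1436), Trac (181), Cd6 (46.7), Cd5 (19.2), Cd4 (6.95), Cd8b1 (6.69), Cd8a (5.03) and Foxp3 (2.66). In pre-exposed mice Trbc2 and Trbc1 differed by less than the larger of their SDs, and so did each pair of neighbours from Cd6 down to Foxp3. In naïve mice this held for the neighbours from Cd4 down to Foxp3 alone.

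The members did not vary as 1 block over the libraries. Described by Pearson's r of log2 CPM over all 10 libraries, which share depth and group, Cd4 went with Foxp3 (0.94) and Cd5 (0.92), and Cd5 with Foxp3 (0.93). Trac went less closely with Cd4 (0.73), and Trbc1 ran against Cd6 (−0.58). Among all tested genes of at least 5 CPM, those most like Cd4 were Rogdi (0.98), I830077J02Rik (0.97) and Adap1 (0.97), and those most like Foxp3 were Ifi30 (0.99), Sirpa (0.99) and H2ax (0.99). Sirpa, a marker of conventional dendritic cells and macrophages, averaged 24.9 CPM in pre-exposed mice and 2.18 CPM in naïve mice. For Cd8b1 they were Cd86 (0.88), Tigit (0.88) and Siglech (0.87), for Cd8a Rars (0.92), Apobec1 (0.91) and Slc46a3 (0.91), for Cd5 Zfp36, Wdr74 and Syngr2 (0.96 to 0.97), and for Cd6 Icam1, Nod1 and Phgdh (0.97 each). Trac was most like Klf6, Erg28 and Ly6k (0.95 to 0.96), Trbc1 like Bod1l, Oard1 and Gjb2 (0.94 to 0.95), and Trbc2 like Cfap298, Tm2d3 and Itgb1bp1 (0.97 to 0.98).

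The variable segments of the α and β chains were examined next. Of the 209 α and β receptor genes counted, 86 were tested. Of these 86, 12 were higher, Trac included, and 1 was lower, beside 5.12% higher and 1.18% lower of all tested genes. The median log2 fold change of the 86 was 0.68 (all tested genes, 0.02), and it was not computed with the length trend removed. V segments are short, such as Trbv13-1 with a counted length of 337 bases. Removing the length trend took the log2 fold change of Trbv13-1 from 1.95 to 0.94. The medians of the Trav and Trbv segments below are not corrected for length either. Counts of Trav families that serve both chains can also come from δ transcripts. The 12 genes called higher were not divided by this, so a called Trav segment is not by itself a sign of α chains. The 6 Trav segments called, all higher, were Trav6-6, Trav6d-6, Trav6-3, Trav10, Trav14-2 and Trav11d, of 36 tested (median 0.94). Of 10 Traj segments tested, Traj18 and Traj33 were higher, and of 22 Trbv segments (median 0.68) Trbv13-1, Trbv13-2 and Trbv13-3. Trbj1-7, 1 of 15 Trbd and Trbj segments, was lower, at 6.70 ± 3.49 CPM in pre-exposed mice and 18.7 ± 6.34 CPM in naïve mice (SD, n = 5 each). Its log2 fold change was −1.55 (SE 0.41, adjusted p = 0.0399 in edgeR), and −0.90 (SE 0.43, adjusted p = 0.339) in pre-exposed mice 1 and 5 against all naïve mice. Trbj1-7 passed in 2 of 10 fits without 1 library, those without pre-exposed mouse 1 or 5. The segments beyond those of the rule for named genes, among them Trav11, Trav11d, Traj18, Trbv13-2 and Trbv13-3, were singled out after their values were seen.

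Trav11 had 21.9, 89.9, 48.2, 63.0 and 6.54 CPM in pre-exposed mice 1 to 5, against 0.147, 0.414, 11.5, 13.8 and 11.99 CPM in naïve mice. Naïve mice 1 and 2 were close to 0, while naïve mice 3 to 5 were above pre-exposed mouse 5. The log2 fold change was 2.68, with an adjusted p of 0.0654 in edgeR, and 3.05 for its copy Trav11d (SE 0.83, adjusted p = 0.0440). Traj18 had 3.33, 20.5, 8.68, 12.2 and 2.00 CPM in pre-exposed mice, against 0.220, 0.207, 2.35, 2.01 and 0.578 CPM in naïve mice, a log2 fold change of 3.23 (SE 0.71, adjusted p = 0.0221). Pre-exposed mice 2 to 4 were the highest, and again naïve mice 1 and 2 the lowest. Traj18 passed in 6 of 10 fits without 1 library (adjusted p from 0.00265 to 0.0836, lost without naïve mouse 1, 2 or 5 or pre-exposed mouse 2). Trav11d passed in 2 of 10, without pre-exposed mouse 1 or 5, with an adjusted p of up to 0.140. In pre-exposed mice 1 and 5 against all naïve mice the log2 fold change was 1.26 for Trav11d (SE 1.07, adjusted p = 0.589) and 1.48 for Traj18 (SE 0.87, adjusted p = 0.438). With the index pair as a covariate it was 1.24 for Trav11d (adjusted p = 0.519) and 1.44 for Traj18 (adjusted p = 0.406). With the length trend removed it was 2.11 for Trav11d (SE 0.84, adjusted p = 0.222) and 2.75 for Traj18 (SE 0.69, adjusted p = 0.0582).

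The β partners of the same invariant receptor include the Trbv13 segments and Trbv1, on chromosome 6. They are not all of its partners, and further ones are not given by value here. Of the 22 tested Trbv segments, the 3 of Trbv13 alone passed. Trbv13-2 had 41.3, 178, 114, 134 and 21.4 CPM in pre-exposed mice 1 to 5, against 19.7, 25.2, 35.2, 31.1 and 29.2 CPM in naïve mice (log2 fold change 1.81, SE 0.45, adjusted p = 0.0319 in edgeR). Trbv13-1 had 13.7, 74.6, 41.1, 54.7 and 18.2 CPM in pre-exposed mice, against 9.25, 12.6, 11.2, 9.92 and 9.54 CPM in naïve mice (log2 fold change 1.95, SE 0.41, adjusted p = 0.0190). Trbv13-3 had 16.8, 81.8, 50.9, 51.3 and 15.1 CPM in pre-exposed mice, against 9.17, 11.4, 13.7, 12.3 and 8.81 CPM in naïve mice (log2 fold change 1.97, SE 0.42, adjusted p = 0.0198). All pre-exposed mice were above all naïve mice for Trbv13-1 and Trbv13-3, as for 2.77% of all tested genes. For Trbv13-2, pre-exposed mouse 5 lay inside the naïve range. Trbv13-1 and Trbv13-3 passed in 5 of 10 fits without 1 library, the call being lost without naïve mouse 1, 2, 4 or 5 or pre-exposed mouse 2 (adjusted p up to 0.0715 and 0.0740), and Trbv13-2 in 2 of 10, without pre-exposed mouse 1 or 5. In pre-exposed mice 1 and 5 alone the log2 fold changes of these 3 segments were 0.63, 0.23 and 0.58 for Trbv13-1, Trbv13-2 and Trbv13-3, with adjusted p of 0.417, 0.770 and 0.460. With the length trend removed they were 0.94, 0.84 and 0.99, with adjusted p of 0.228, 0.361 and 0.229. Trbv1 had 13.1, 28.1, 21.3, 38.4 and 6.72 CPM in pre-exposed mice, against 9.17, 7.19, 11.97, 12.5 and 8.81 CPM in naïve mice. Its log2 fold change of 1.14 (SE 0.39, adjusted p = 0.0916) did not pass, and pre-exposed mouse 5 was below all naïve mice.

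**Figure D4:**
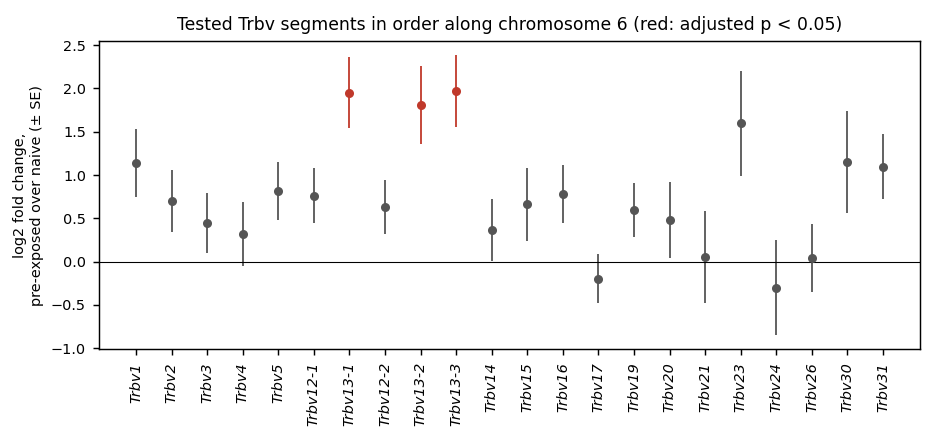
Log2 fold change, pre-exposed over naïve, with its SE, of the 22 tested Trbv segments in their order along the chromosome; red points passed an adjusted p of 0.05. Trbv13-1, Trbv13-2 and Trbv13-3 (1.95, 1.81 and 1.97) are the highest of the row.

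These segments were also taken as shares of the counts of their own segment class. Trav11, Trav11d and Trav11n together took 49.5%, 54.6%, 55.1%, 54.5% and 43.8% of the counts in Trav families without a δ designation in pre-exposed mice 1 to 5, against 4.11%, 5.67%, 52.2%, 54.1% and 65.9% in naïve mice. Naïve mice 3 to 5 were thus within or above the range of the pre-exposed mice, and naïve mice 1 and 2 far below, with Wilson 95% intervals of 1.41% to 11.4% and 2.90% to 10.8%. Those intervals cover counting error only, over 73 and 141 counts. Summed over the same families, the level was 61.6, 236, 126, 172 and 20.3 CPM in pre-exposed mice, against 5.36, 7.29, 32.2, 33.0 and 23.7 CPM in naïve mice. Here pre-exposed mice 1 to 4 lay above all naïve mice and pre-exposed mouse 5 did not. Trav families with a δ-designated member had 252 to 938 CPM in pre-exposed mice and 283 to 702 CPM in naïve mice. Traj18 took 12.5%, 27.3%, 20.6%, 25.1% and 6.88% of the Traj counts in pre-exposed mice, against 1.47%, 1.18%, 11.2%, 9.14% and 5.13% in naïve mice. The 3 Trbv13 segments took 23.7%, 41.9%, 32.4%, 40.9% and 8.65% of the Trbv counts in pre-exposed mice, against 10.9%, 11.4%, 16.5%, 18.2% and 21.2% in naïve mice. Pre-exposed mice 1 to 4 were above all naïve mice in Trbv13 share, and pre-exposed mouse 5 was the lowest of all. Trbv1 took 4.33%, 3.52%, 3.35%, 6.52% and 1.06% of the Trbv counts in pre-exposed mice, against 2.63%, 1.67%, 3.28%, 4.28% and 3.93% in naïve mice, so its shares overlapped.

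**Figure D5:**
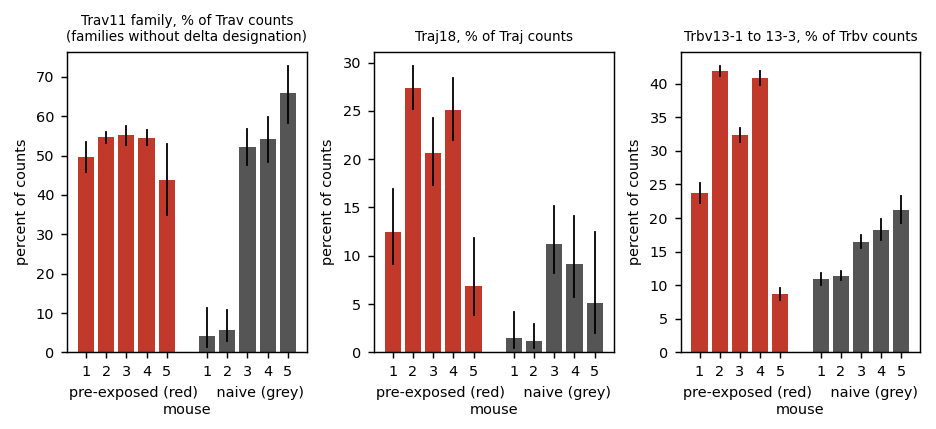
Shares of counts with Wilson 95% intervals (black lines, counting error only) for pre-exposed mice 1 to 5 (red) and naïve mice 1 to 5 (grey), on axes that start at 0. The Trav11 family took 43.8% or more in all libraries except naïve mice 1 and 2 (4.11% and 5.67%), while Traj18 and Trbv13 shares were highest in pre-exposed mouse 2 (27.3% and 41.9%).

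The other Trav segments called were of low abundance. Trav6-6 had 1.24 to 6.62 CPM in pre-exposed mice and 0 to 0.354 CPM in naïve mice (adjusted p = 0.00585 in edgeR), and it ends 1936 bases before Trav11 on chromosome 14. Trav6d-6, which ends 1997 bases before Trav11d, had 1.64 to 8.95 CPM in pre-exposed mice and 0.144 to 1.14 CPM in naïve mice (adjusted p = 0.0182). Trav6-3 had 1.25 to 4.23 CPM in pre-exposed mice and 0 to 0.605 CPM in naïve mice (adjusted p = 0.0190), and Trav10 had 2.09 to 8.27 CPM in pre-exposed mice and 0 to 1.75 CPM in naïve mice (adjusted p = 0.0253). Trav14-2 had 2.66 to 8.72 CPM in pre-exposed mice and 1.42 to 2.49 CPM in naïve mice (adjusted p = 0.0374), highest in pre-exposed mouse 5. Traj33, the J segment used with Trav1 by mucosal-associated invariant T cells, had 0.902 to 2.18 CPM in pre-exposed mice and 0.0673 to 0.672 CPM in naïve mice (adjusted p = 0.0357). In each of these 6 segments, named because they had passed, all pre-exposed mice were above all naïve mice, as for 2.77% of all tested genes. With the length trend removed, Trav6-6 passed (edgeR adjusted p = 0.0293) and the others did not (0.0938 to 0.360). Trav6-6 alone of them passed in all 10 fits without 1 library. In pre-exposed mice 1 and 5 against all naïve mice their log2 fold changes were 1.57 to 3.303 and 0 of the 6 passed (adjusted p from 0.121 to 0.274).

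Of 43 tested genes in 5 lists of genes that act with the members, 8 passed (18.6%), 6 of them higher and 2 lower, beside 6.3% of all tested genes. Of 33 genes other than the members that are named as higher or lower, 5 (Adgre1, Il23r, Klra9, Ly6c2 and Trav6-6) passed in each of the 10 fits that left out 1 library, and Cd3d, Ctla4, Itgae, Izumo1r and S1pr1 in 2. In pre-exposed mice 1 and 5 against all naïve mice 3 of the 33 passed (Adgre1, Klra9 and Ly6c2), and in pre-exposed mice 2 to 4, as without pre-exposed mouse 5, 33 of 33 passed. With the index pair as a covariate the same 3 passed, and with the length trend removed 12 of 33. In that last fit Ly6c2 (edgeR adjusted p = 0.124), Cd3d (0.271) and Ccl5 (0.273) were among those that did not pass. The direction was the same for 33 of 33 in each of these fits. The 33 were picked by the fit of all 10 libraries, whose libraries these fits reuse, so this is no independent result. Of all 12655 tested genes, 23 passed in pre-exposed mice 1 and 5, 3777 in pre-exposed mice 2 to 4 and 1870 without pre-exposed mouse 5. With the index pair as a covariate 40 passed, and with the length trend removed 214. Of 8 genes of the CD3 complex and coreceptor kinases, Cd3d was higher (1208 ± 429 CPM in pre-exposed mice and 596 ± 92.0 CPM in naïve mice, SD, n = 5 each; log2 fold change 1.02, adjusted p = 0.0459 in edgeR). Cd3g had a log2 fold change of 0.94 and an adjusted p of 0.109, and Cd3e of 0.63 and 0.140. Of 8 genes of the CD4 lineage list, Tnfrsf4, which encodes the costimulatory receptor OX40, was higher, with 55.4, 107, 71.9, 80.9 and 13.99 CPM in pre-exposed mice, against 1.47, 2.64, 28.1, 15.1 and 7.08 CPM in naïve mice (log2 fold change 2.60, adjusted p = 0.0347). In pre-exposed mice 1 and 5 against all naïve mice Tnfrsf4 was at 1.75 (adjusted p = 0.347), and it passed in 3 of 10 fits without 1 library. Zbtb7b, the factor that fixes CD4 fate in thymocytes, had 20.3 ± 6.04 CPM in pre-exposed mice and 30.5 ± 9.97 CPM in naïve mice (adjusted p = 0.246). Of 8 genes of the CD8 lineage list, 2 were higher, the chemokine gene Ccl5 (log2 fold change 1.51, adjusted p = 0.0174) and Klrg1 (2.78, adjusted p = 0.0184), both also expressed by NK cells and γδ T cells. Among the genes of the CD4 list that did not pass, Icos had 293 ± 62.9 CPM in pre-exposed mice and 183 ± 30.0 CPM in naïve mice (adjusted p = 0.0749), and Cd40lg, which encodes the CD40 ligand, 191 ± 110 CPM in pre-exposed mice and 124 ± 21.9 CPM in naïve mice (adjusted p = 0.237).

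Of 11 regulatory T cell genes tested, 2 were higher and 1 was lower. Ctla4, an inhibitory receptor, had 65.0, 55.8, 44.6, 24.8 and 21.1 CPM in pre-exposed mice, against 3.60, 3.36, 27.9, 14.4 and 9.25 CPM in naïve mice (log2 fold change 1.86, adjusted p = 0.0491 in edgeR). Izumo1r, which encodes folate receptor 4, had a log2 fold change of 0.95 and an adjusted p of 0.0443. Itgae, the αE integrin chain, was lower, with 42.1 ± 25.1 CPM in pre-exposed mice and 109 ± 30.7 CPM in naïve mice (log2 fold change −1.36, adjusted p = 0.0454). Tigit was at an adjusted p of 0.0597. Of 8 resting T cell genes S1pr1 was lower (log2 fold change −1.07, adjusted p = 0.0307), and Tcf7 had a log2 fold change of −0.65 and an adjusted p of 0.0692. Of 22 γδ T cell genes 3 were lower, namely Il23r (−1.33, adjusted p = 0.0115), Cd163l1 (−2.41, adjusted p = 0.0238) and Trdv4 (−2.11, adjusted p = 0.0283), and 0 were higher. Of all tested genes 1.18% were lower and 5.12% higher. In pre-exposed mice 1 and 5 alone Cd163l1 was at −2.74 (adjusted p = 0.146) and Trdv4 at −1.47 (adjusted p = 0.347), and without 1 library Cd163l1 passed in 5 and Trdv4 in 4 of 10 fits. Trgv6 had a log2 fold change of −1.96 and an adjusted p of 0.0507. None of 4 pre-TCR and recombination genes passed the filter on low counts, with a summed level of 0.139 to 5.14 CPM in pre-exposed mice and 0 to 0.578 CPM in naïve mice.

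Some markers of cells other than T cells, among them cells that carry CD4, CD8α or CD5, moved with the groups. The counts of each list below stand beside 5.12% of all tested genes called higher. Of 9 plasmacytoid dendritic cell markers tested 4 were higher, and the summed level of the list was 278 to 682 CPM in pre-exposed mice and 175 to 229 CPM in naïve mice. Siglech, the defining marker of that list, had 182, 143, 45.3, 31.6 and 0.545 CPM in pre-exposed mice 1 to 5, against 0, 6.05, 5.38, 9.33 and 3.61 CPM in naïve mice. Irf8, a factor of these cells and of conventional dendritic cells 1, had 19.4 to 210 CPM in pre-exposed mice and 28.5 to 38.0 CPM in naïve mice (log2 fold change 1.89, adjusted p = 0.0243). Irf8 was at 1.55 (adjusted p = 0.184) in pre-exposed mice 1 and 5 alone and passed in 4 of 10 fits without 1 library. Siglech was near 0 in pre-exposed mouse 5, where Cd4, Cd5, Cd6 and Foxp3 were at their lowest too. Of 8 markers of conventional dendritic cells 1 there were 3 higher (67.5 to 152 CPM in pre-exposed mice and 31.8 to 65.1 CPM in naïve mice), and of 5 of conventional dendritic cells 2 also 3 (190 to 835 CPM in pre-exposed mice and 403 to 762 CPM in naïve mice). Most of the latter sum in naïve mice was Dtx1, which did not pass (148 to 664 CPM in pre-exposed mice and 362 to 703 CPM in naïve mice). Clec9a of the first of these lists had 1.45 to 9.34 CPM in pre-exposed mice and 0 to 1.16 CPM in naïve mice. In the last list Cd209a had 255, 319, 111, 53.2 and 0.545 CPM in pre-exposed mice, against 0.0734, 0, 13.6, 6.38 and 2.02 CPM in naïve mice. Of 9 macrophage and monocyte markers 6 were higher (527 to 2049 CPM in pre-exposed mice and 233 to 321 CPM in naïve mice). Adgre1, which encodes F4/80, had 9.47 to 27.5 CPM in pre-exposed mice and 0.404 to 3.08 CPM in naïve mice. Ly6c2 had 286 to 653 CPM in pre-exposed mice and 150 to 204 CPM in naïve mice. It made up 475 of the 527 CPM of this list in pre-exposed mouse 5, where Cd68 (3.45 CPM) was inside the naïve range. Lyz2, lysozyme, had 778, 1250, 536, 244 and 26.9 CPM in pre-exposed mice and 39.9, 29.6, 82.7, 141 and 84.0 CPM in naïve mice. Of 5 B cell markers tested 3 were higher (80.5 to 198 CPM in pre-exposed mice and 102 to 166 CPM in naïve mice), with Cd79a at 1.09 to 21.7 CPM in pre-exposed mice and 0.776 to 2.72 CPM in naïve mice, while Ebf1 and Pax5 had 0 counts in all libraries. Much of that sum was Cd22, which did not pass (19.3 to 95.3 CPM in pre-exposed mice and 35.4 to 96.4 CPM in naïve mice). NK cell and erythroid lists had 3 of 7 and 3 of 5 markers higher, with the NK cell receptor gene Klra9 at 106 to 1230 CPM in pre-exposed mice and 21.3 to 52.5 CPM in naïve mice. In pre-exposed mouse 5 Siglech, Cd209a and Cd79a were inside the naïve range. Lyz2 (26.9 CPM), Irf8 (19.4 CPM) and Sirpa (0 CPM) were below all naïve mice in that library. Adgre1 (14.4 CPM), Ly6c2 (475 CPM) and Klra9 (1230 CPM) were above all naïve mice, as Trac was. Clec9a had 8 counts in pre-exposed mouse 5, at 1.45 CPM against up to 1.16 CPM in naïve mice. Over all libraries the edgeR adjusted p was 0.0264 for Siglech, 0.0264 for Cd209a, 0.0295 for Lyz2, 0.0117 for Clec9a and 0.0382 for Cd79a. In pre-exposed mice 1 and 5 against all naïve mice it was 0.119, 0.125, 0.173, 0.116 and 0.116 in the same order. Adgre1, Ly6c2 and Klra9 passed in that comparison. The part of any of these cells in the levels of the 9 members was not tested.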

How the data were processed

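RNA of EM γδ T cells from 5 pre-exposed and 5 naïve mice was sequenced, 1 library per mouse. A further marker of the sort is not reported here. The library kit is a SMART one in the paper and a TruSeq one in the labels. The authors aligned read pairs of 76 cycles to mm10 with Subread and deposited whole-number counts per Entrez gene from featureCounts, not normalized. Tool versions and strandedness: not given in the sources used here. A gene symbol was found for 25275 of 27179 IDs in RefSeq's gene table of GRCm38.p6. Of 13534 genes that passed filterByExpr, 767 without a symbol and 112 immunoglobulin genes were left out, as in the study, and 12655 were tested.

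After TMM scaling the counts were compared by the quasi-likelihood F test of edgeR 4.0.16 (robust, legacy set to FALSE) in R 4.3.3, all 10 libraries in 1 fit without covariates, with two-sided p-values adjusted by Benjamini and Hochberg at 0.05. Levels are CPM, that is counts per 1e6 of the scaled library size. For single genes, log2 CPM (prior count 2) also entered an exact permutation test of the difference of means. Replicate numbers did not pair the libraries. Alternatives were other scalings, filters and tests (DESeq2 1.42.0, limma 3.58.1 voom with TREAT at 1.5-fold, the study's test), the replicate number or the index pair as a covariate, subsets of libraries, and an offset per gene and library that removed each library's loess trend (span 0.3) with gene length. Total counts ranged from 6587199 to 22542832, and a gene without counts in a library allows up to 3 counts, for counting error only. The labels give each library as its own replicate.

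Named genes were taken from the members, the up to 4 tested genes with the smallest p of each marker list, Trdc and the most abundant γ constant gene, and for each member the 3 most similar genes of at least 5 CPM. Other genes were named after their values were seen. The members, the lists and the alternatives were chosen with earlier results of these data known.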

Additional observations from a re-analysis of the deposited data

Results flagged for a closer look

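In 104 groups of 5 libraries, 7 held a library that lay apart from the other 4 by Dixon's test at the 95% level. Chance alone puts about 1 in 20 groups there. Naïve mouse 2 had 27.2 CPM of Cd8b1, against 1.10 to 7.33 CPM in the other naïve mice. Pre-exposed mouse 5 had 234 CPM of Trdv4 (51.4 to 75.3 in the other pre-exposed mice), 382 CPM of Cd40lg (109 to 181) and 1230 CPM of Klra9 (106 to 327). Pre-exposed mouse 2 had 6.62 CPM of Trav6-6 (1.24 to 2.71 in the other pre-exposed mice) and 8.95 CPM of Trav6d-6 (1.64 to 3.61). Naïve mouse 3 had 1.75 CPM of Trav10, against 0 to 0.289 CPM in the other naïve mice.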

How the results depend on the processing

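The count of members called depended on the test and on the libraries. It was 1 of 9 (797 of all genes) with edgeR over all libraries and stayed 1 under other scalings, other filters, with all genes kept, and with edgeR's legacy method (358 of all genes). It was 4 with DESeq2 (1350 genes), 0 with voom and TREAT at 1.5-fold in limma (2 genes; 2 members at an unadjusted p under 0.05), 1 (Cd8a) with quality weights in voom (287 genes), 0 with the index pair as a covariate (40 genes; 2 members unadjusted), 0 with pre-exposed mice 1 and 5 (23 genes; 1 member unadjusted), 7 with pre-exposed mice 2 to 4 (3777 genes) and 1 with the length trend removed (214 genes). The study reports a far longer list of genes by voom and TREAT. The voom fit without quality weights did not reproduce that list, and the reason was not tested. Left out 1 at a time, libraries gave 0 to 6 members and 53 to 1870 genes. The count was 0 without naïve mouse 1, 2 or 5 or pre-exposed mouse 2 (4 to 6 unadjusted), 2 without pre-exposed mouse 1 and 6 without pre-exposed mouse 5. Trbc1 and Trbc2 turned to −0.78 and −0.43 on the log2 scale with the length trend removed. The other 7 members kept a log2 fold change above 0 in all alternatives. The cause of the other changes was not tested. With the replicate block the fit called 55 genes and 0 members (5 unadjusted). Same-numbered libraries deviated together with correlations of −0.26 to 0.05, so the numbers do not pair them. Depth limits the lowest values, such as the 15 counts of Cd8b1 in naïve mouse 1.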
